A study of Mus musculus with 2 samples.

Results

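The BCL2 family decides whether a cell commits to mitochondrial apoptosis. Its 10 genes examined here are Bcl2, Bcl2l1, Bcl2l2, Mcl1, Bax, Bak1, Bcl2l11, Bbc3, Pmaip1 and Bid, and their probes were found by the RefSeq accession that the array gives each probe. All 10 genes were on the array, with 13 probes, among 20659 genes named in the same way. Gene expression was measured on 2 one-colour Agilent arrays of mouse retina at postnatal day 14. The first was hybridised with wild-type (WT) retinal RNA and the second with RNA of mutant retina labelled Mef2d KO, called the KO-labelled array. Mef2d codes for one of the MEF2 transcription factors, known from muscle and nerve cells, and the comparison addresses how its loss bears on retinal gene expression. The strain, the sex and number of the animals, their pooling and the deleted part of Mef2d are not given in the sources used here.

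The family has anti-apoptotic and pro-apoptotic branches. Anti-apoptotic members (Bcl2, Bcl2l1, Bcl2l2, Mcl1) hold the effectors Bax and Bak1 in check. Effectors, once active, open pores in the outer mitochondrial membrane and release cytochrome c, which starts the caspase cascade. BH3-only members (Bcl2l11, Bbc3, Pmaip1, Bid) sense stress and either neutralise the anti-apoptotic members or activate the effectors. In the retina the pathway serves developmental cell death and the loss of photoreceptors in degeneration. Much of its control lies in protein stability, cleavage and location, which RNA arrays do not read.

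Each group is a single array, so nothing here was checked against replicates and p-values are left out. Differences are on the log2 scale, KO-labelled array minus WT, with each array first set relative to its 75th percentile (a signal of 807.5 for WT and 857.9 for the KO-labelled array). A value after ± is the error that the scanner software models for the spots concerned, which does not include variation between animals. Where a probe had several spots, it is the error of their mean, with the spots taken as independent. Such errors are narrower, so ± values are not comparable across genes with unequal numbers of spots. The brightest probe stood for a gene, and by the software's flag 16187 genes were well above background in both samples. No spot was saturated. Both Mef2d probes read higher, not lower, on the KO-labelled array (0.43 ± 0.20 and 0.14 ± 0.21). The sources used here do not place them relative to the deletion, so they do not check the label. Xist was well above background on the KO-labelled array only, while the Y-linked Eif2s3y was read on both, so genotype and sex cannot be told apart.

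All retinal marker genes that were listed, 9 of rods, 8 of cones, 8 of bipolar cells, 12 of amacrine and ganglion cells and 8 of Mueller glia, were well above background on both arrays. Other tissue was read as well. Of 8 lens markers 5 were lower by 2-fold or more on the KO-labelled array (list median -2.15 over the 7 read on both arrays), and of 13 microglia and leukocyte markers 9 of the 11 read on both arrays had a positive difference (median 0.32). Cone markers had a median of -0.30, with 2 of 8 at least 2-fold lower. No marker on the remaining lists was 2-fold apart. Differences were negative for 8 of 8 bipolar (median -0.14), 6 of 8 Mueller glia (-0.14) and 6 of 9 rod markers (-0.041). They were negative for 7 of 12 amacrine and ganglion (-0.026) and 5 of 7 endothelial and blood markers (-0.165). With median scaling 3 of 8 bipolar markers were negative. Whether these cell types had a part in the values of the BCL2 family was not tested. In bulk tissue, fewer cells of a type and less RNA per cell cannot be told apart.

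No BCL2 family member differed by 2-fold or more. All 13 probes were well above background on both arrays, each read by a single spot per array. Of the 10 members 6 had a positive and 4 a negative difference, from -0.535 for Bcl2l11 to 0.30 for Bbc3, with a median of 0.055. Among all 16187 genes the median was -0.006, 48.8% had a positive difference, 1.74% were lower by 2-fold or more and 0.618% higher by 2-fold or more. With median scaling, which moved the median of all genes to 0.17, the members' median was 0.23 and 9 of 10 differences were positive, so the signs of the small differences depend on the scaling.

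Bbc3, Bcl2l1 and Bax exceeded their own scanner error upwards, and Bcl2l11 downwards. Of all genes 13.4% were higher and 19.1% lower by more than their scanner error, against 3 and 1 of the 10 members. The other 6 members lay within that error, though Mcl1 and Bid did not with median scaling.

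**Figure D1:**
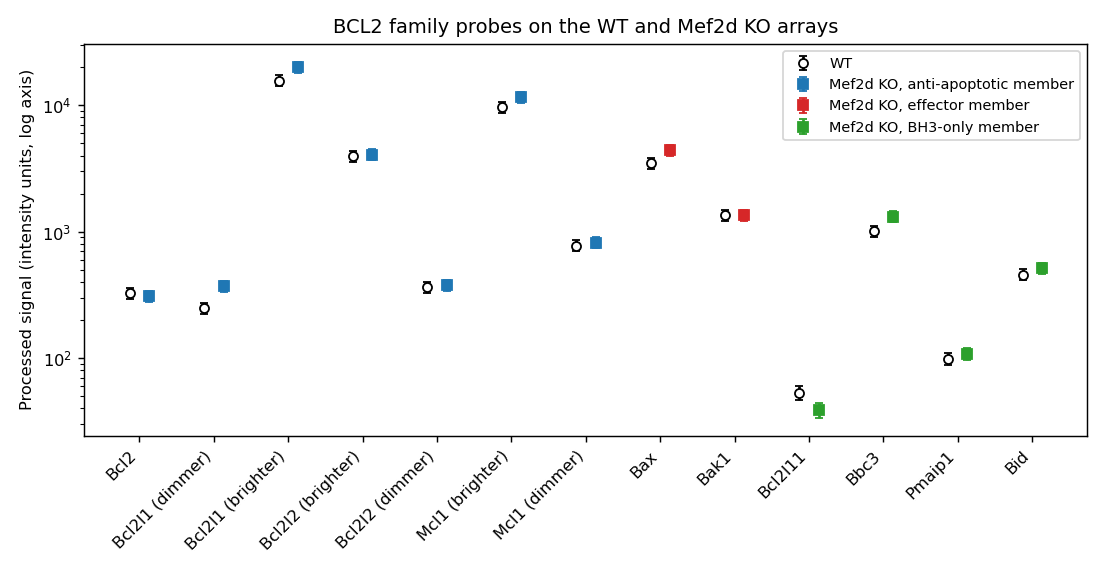
Processed signal of the 13 BCL2 family probes (intensity units, log axis) on the WT array (open circles) and the KO-labelled array (filled squares, coloured by role), with the scanner software's error as bars and before scaling between arrays. Both Bcl2l1 probes, Bax and Bbc3 read visibly brighter on the KO-labelled array, and the dim Bcl2l11 probe read dimmer. Brightness of different probes is not comparable.

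Among the anti-apoptotic members, Bcl2l1 stood highest. It encodes BCL-XL, the survival protein of many mature neurons. Its brighter probe had a processed signal of 15636 in WT and 20042 on the KO-labelled array, a difference of 0.27 ± 0.20 or 1.21-fold after scaling. The dimmer probe had signals of 248.3 and 369.7, a difference of 0.49 ± 0.21 or 1.40-fold. Both probes were therefore higher on the same array, by unequal amounts. They stood 0.22 apart, against a median of 0.12 over 3599 genes with exactly 2 such probes, and 27.6% of those genes had a larger gap. Of all genes, 8.85% had a larger positive difference than the brighter Bcl2l1 probe.

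Mcl1, a short-lived survival protein needed by many cell types, was less clear. The signal of its brighter probe was 9672 in WT and 11523 on the KO-labelled array (0.17 ± 0.20). Its dimmer probe gave 775.1 and 819.6 (-0.007 ± 0.20). The probes fell on either side of 0, and both lay within the error. Averaging them gave 0.079, while the brighter probe was at 0.34 with median scaling, outside its error.

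Bcl2l2, which encodes BCL-W, a survival factor of neurons and testis, gave nearly equal values on both arrays. Its probes had signals of 3932 and 366.1 in WT against 4066 and 379.8 on the KO-labelled array, with differences of -0.039 ± 0.20 and -0.034 ± 0.21. Bcl2, the founding member, had signals of 327.2 (WT) and 309.9 (-0.17 ± 0.20). It had the lowest difference of the anti-apoptotic group, and with median scaling it was 0.013. The median over the 4 anti-apoptotic members was 0.063.

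The effectors Bax and Bak1 had opposite signs. Bax had a signal of 3467 in WT and 4393 on the KO-labelled array (0.25 ± 0.20, 1.19-fold). Bak1 had 1358 and 1357, which after scaling was a difference of -0.089 ± 0.20. Bax was thus higher on the KO-labelled array by slightly more than its scanner error, and Bak1 lay within it. With median scaling both were positive (0.43 and 0.089). Of all genes, 9.82% had a larger positive difference than Bax.

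The BH3-only members gave both the highest and the lowest value of the family. Bbc3 encodes PUMA, a classical target of p53 and also of stress-linked transcription factors. Its signal was 1004 in WT and 1316 on the KO-labelled array (0.30 ± 0.20, 1.23-fold), and 7.25% of all genes had a larger positive difference. Bid, the protein that caspase-8 cleaves to link death receptors to mitochondria, had 457.7 and 512 (0.074 ± 0.20). Pmaip1, which encodes NOXA, a partner of MCL1 and also a p53 target, had 99.27 and 108.1 (0.036 ± 0.22, and -0.11 with normexp background correction). Bid and Pmaip1 lay within the error, but with median scaling Bid was 0.25, outside it, and Pmaip1 was 0.21, at its edge.

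Bcl2l11 encodes BIM, the BH3-only protein linked to developmental neuron death and to withdrawal of survival factors. Its probe was dim, with a signal of 53.25 in WT and 39.05 on the KO-labelled array, a difference of -0.535 ± 0.26 (0.69-fold). Dim genes in general read lower on that array. The 1239 genes within 0.5 log2 units of its mean level had a median difference of -0.24 and a middle range, from the 25th to the 75th percentile, of -0.505 to 0.023, so Bcl2l11 lay just under this range. Of 10 spiked-in control RNAs with 35 spots each, the 6 brightest differed by -0.032 to 0.022. At lower levels in WT the controls differed more, by -0.105 at -2.84 and by -0.70 at -4.20, and the level of Bcl2l11 in WT was -3.92. The difference of Bcl2l11 was -0.19 with cyclic loess, -0.245 with quantile normalization and -0.225 with normexp background correction, all within its scanner error.

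**Figure D2:**
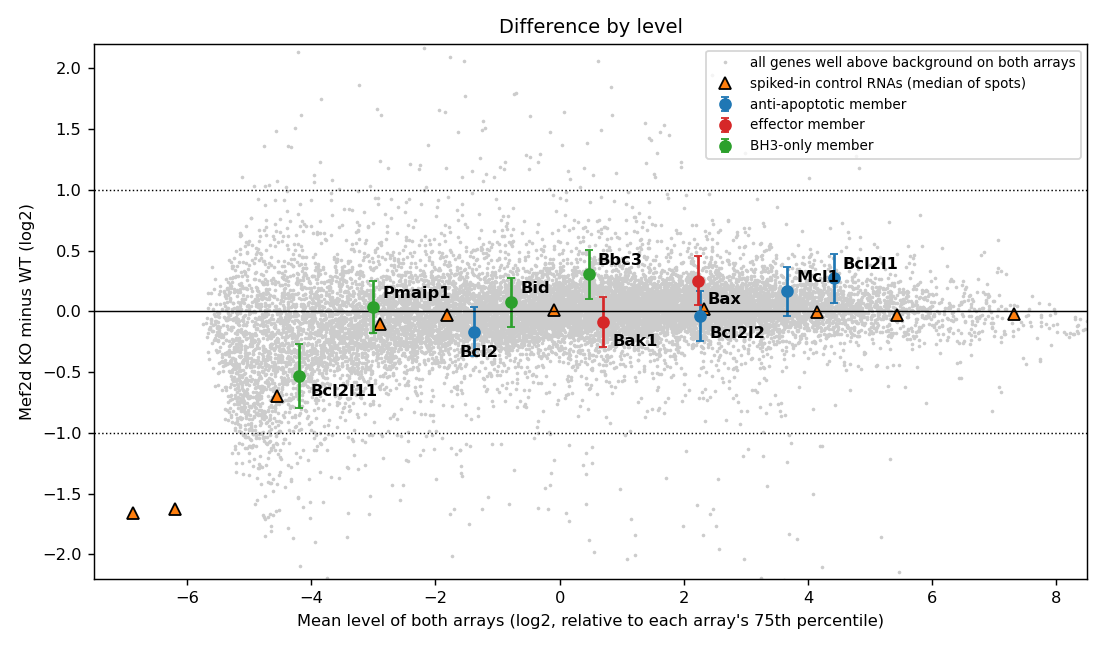
Difference of each gene (log2, KO-labelled array minus WT) against its mean level on both arrays, for 16187 genes (grey), the 10 BCL2 family members (coloured by role, bars are the scanner error) and 10 spiked-in control RNAs (triangles). Dotted lines mark 2-fold, and 45 genes lie beyond the axis limits of 2.2. Every member lies within the dotted lines, and Bcl2l11 lies at the dim end, where the controls also lie below 0.

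Ratios between members read on the same array do not depend on a scaling constant. The pairs were chosen with the values known, so they describe how the members varied among themselves. The Bax to Bcl2 ratio, often used as a shorthand for death readiness, differed by 0.42 ± 0.29 (a 1.34-fold higher ratio in the knockout-labelled RNA), and by 0.36 when cyclic loess was used or 0.34 after normexp background correction. The Bax to Bcl2l1 ratio differed by -0.017 ± 0.29 and the Bax to Mcl1 ratio by 0.089 ± 0.29. The value for Bax therefore exceeded that for Bcl2 by more than the scanner error, but not those for Bcl2l1 or Mcl1. Bbc3 exceeded Bcl2 by 0.47 ± 0.29 and Bcl2l1 by 0.033 ± 0.29. Within the anti-apoptotic group, Bcl2l1 exceeded Bcl2 by 0.44 ± 0.29.

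Promoters of 9 members were matched by symbol in RefSeq (GRCm38.p6), as 14 windows of 300 bases that run from 250 before to 50 after a transcript start. Pmaip1 is named only. The promoters of the 4 members that exceeded their scanner error are printed 5′ to 3′ along the gene, each the most upstream window of that gene, with motif matches in capitals. Bax lies at chr7:45466849-45467148 (minus strand), Bbc3 at chr7:16309333-16309632 (plus), Bcl2l1 at chr2:152831679-152831978 (minus) and Bcl2l11 at chr2:128125788-128126087 (plus).
Bax: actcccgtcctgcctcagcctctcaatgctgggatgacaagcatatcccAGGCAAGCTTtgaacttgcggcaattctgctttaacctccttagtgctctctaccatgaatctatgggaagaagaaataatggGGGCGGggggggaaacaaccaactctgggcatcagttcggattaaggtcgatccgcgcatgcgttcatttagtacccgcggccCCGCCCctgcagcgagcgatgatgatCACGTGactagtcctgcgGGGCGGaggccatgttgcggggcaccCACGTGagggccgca
Bbc3: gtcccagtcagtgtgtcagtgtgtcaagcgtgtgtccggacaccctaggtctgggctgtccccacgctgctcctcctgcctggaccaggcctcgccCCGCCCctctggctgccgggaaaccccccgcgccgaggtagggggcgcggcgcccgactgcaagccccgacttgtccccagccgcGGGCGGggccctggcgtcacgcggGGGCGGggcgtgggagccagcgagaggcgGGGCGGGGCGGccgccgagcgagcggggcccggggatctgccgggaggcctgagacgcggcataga
Bcl2l1: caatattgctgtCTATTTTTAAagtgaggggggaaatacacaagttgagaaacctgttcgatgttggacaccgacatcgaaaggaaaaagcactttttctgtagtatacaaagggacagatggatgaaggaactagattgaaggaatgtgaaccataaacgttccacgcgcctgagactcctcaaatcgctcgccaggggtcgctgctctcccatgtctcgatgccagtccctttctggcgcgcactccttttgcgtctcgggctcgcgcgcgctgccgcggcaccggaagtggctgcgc
Bcl2l11: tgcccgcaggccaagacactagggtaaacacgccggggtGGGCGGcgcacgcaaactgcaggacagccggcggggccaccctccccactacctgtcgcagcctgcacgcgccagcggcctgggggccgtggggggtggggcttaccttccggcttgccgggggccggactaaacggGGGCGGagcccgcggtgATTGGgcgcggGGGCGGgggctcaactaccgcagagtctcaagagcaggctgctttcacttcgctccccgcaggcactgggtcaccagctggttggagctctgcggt

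Motifs were searched on both strands in all 32851 windows of the table. They were the TATA box (TATAAA), the inverted or direct CCAAT box (CCAAT), the GC box bound by SP1 (GGGCGG), the E-box (CACGTG), the cAMP response element (TGACGTCA), the MEF2 consensus site and the p53 half-site consensus. The GC box was in 10 of the 14 member windows, covering 7 genes, against 35.7% of all windows. The Bbc3 windows include an overlapping pair that shares GC boxes, so the 10 windows are not all separate sequences. Adjoining GC boxes overlapped one another near the start of Bbc3. No member window held a TATA box, against 13.6% of all windows, or a cAMP response element, against 1.79%. The member windows were rich in G and C, with a median of 65.5% against 52.7%.

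Other motifs matched few of the 14 member windows, and such counts do not set a member apart. The printed Bcl2l1 window held the only MEF2 site among the member windows, beginning 238 bases before the start, and 3.19% of all windows hold one. The Bax window held the only p53 half-site, beginning 201 bases before the start, against 8.36% of all windows, together with 2 E-boxes. At least 1 E-box is in 7.15% of all windows. An E-box was also in 1 Bbc3 window that is not printed. The CCAAT box was in 3 of the 14 member windows, of Bcl2l11 and Bbc3, against 37.4% of all windows. These are letter matches in short windows and show no binding.

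Other BCL2 family genes ranged from -0.75 to 0.84. Of 17 listed, 15 were named on the array and 13 were well above background on both arrays, none of them 2-fold apart. Of these 13, 8 had a positive difference, and the median was 0.062. Hrk, a BH3-only gene of neurons, had a signal of 185.1 in WT and 317.4 on the KO-labelled array (0.69 ± 0.21, and 0.44 with normexp background). Bcl2l10, an anti-apoptotic gene known from oocytes, had 59.53 and 113 (0.84 ± 0.22), which passed 2-fold with median scaling (1.015), quantile normalization (1.03) and cyclic loess (1.05) but was 0.45 with normexp background. Both differences were higher than that of any of the 10 members. Bcl2l15 differed by 0.57 ± 0.21 and Bcl2l14 by -0.75 ± 0.25. With normexp background they were 0.36 and -0.405, and averaging its 3 probes put Bcl2l15 at 0.17, within its error. Bcl2l10 and Bcl2l14 were dim, with levels of -3.76 and -3.55 in WT. At or below a mean level of -3, the spot-to-spot SD of the difference had a median of 0.39. Bik was read on the KO-labelled array only and Bcl2a1c on the WT array only. Of all 20659 genes, 137 were read on the KO-labelled array only and 922 on the WT array only. Set against the lowest level well above background on the dim array, Bik was 1.61-fold higher on the KO-labelled array. Bcl2a1c was 1.425-fold higher on the WT array by the same measure. These ratios leave out scanner error and are not strict bounds. A spiked-in control at a WT level of -5.38, near that of Bcl2a1c (-5.36), had 74.29% of its spots well above background in WT and 0% on the KO-labelled array.

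Genes that act at or after mitochondrial release were next. Of 17 genes of the apoptosome, caspases and mitochondrial death factors, none was 2-fold apart, 10 were positive, and the median was 0.031. Casp9, the caspase activated on the apoptosome, differed by 0.15 ± 0.20. Htra2, a mitochondrial protease released with cytochrome c, differed by 0.46 ± 0.20 and Dffa, the inhibitor of the caspase-activated DNase, by 0.21 ± 0.20. Apaf1, the scaffold of the apoptosome, differed by -0.034 and cytochrome c (Cycs) by -0.002.

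Caspase inhibitors of the IAP family were listed with 10 genes, of which 8 were read on both arrays, none 2-fold apart, with a median of -0.011. Xiap, the strongest direct caspase inhibitor, had a signal of 18814 in WT and 15038 on the KO-labelled array (-0.41 ± 0.20). Birc2, a ubiquitin ligase of TNF receptor signalling, differed by 0.26 ± 0.20. Birc5, a mitotic member also called survivin (-0.11, and 0.064 with median scaling), and Naip2, an inflammasome sensor (0.12), lay within their errors with 75th percentile scaling. Averaging its 3 probes put Birc5 at -0.58, and Naip2 was 0.52 with cyclic loess and 0.49 with quantile normalization, all outside those errors. Xiap and Birc2 thus differed in opposite directions, each by more than its scanner error.

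The death receptor and necroptosis list held the only gene of the 6 pathway lists past 2-fold with 75th percentile scaling. Of 14 genes, all read on both arrays, 1 was at least 2-fold lower and none higher, with a median of 0.065. That gene was Mlkl, the pore-forming executor of necroptosis, with a signal of 122.4 in WT and 57.24 on the KO-labelled array (-1.18 ± 0.23). It stayed lower under all 9 settings that gave a value but lay within 2-fold with cyclic loess (-0.975) and normexp background (-0.63). Ripk3, the kinase that activates it, differed by -0.935 ± 0.33, with signals of 35.68 (WT) and 19.83, and by -0.22 with normexp background. Fasl, the ligand of the death receptor FAS, differed by -0.76 ± 0.32, but lay within that error with quantile normalization (-0.29) and normexp background (-0.315). Ripk3 and Fasl were dim, with WT levels of -4.50 and -4.56. The spiked-in controls on either side of these levels, at -4.20 and -5.38, differed by -0.70 and -1.62. Mlkl was less dim in WT (-2.72), and the control at -2.84 differed by -0.105. The part of signal level in the values of these 3 genes was not tested. Cflar, which encodes the caspase-8 inhibitor FLIP, was brighter, with 1418 and 2206 (0.55 ± 0.20), and Casp8 itself differed by -0.010.

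Of 20 regulators upstream of BH3-only genes, 13 were positive (from 11 with normexp background to 19 with median scaling), with a median of 0.059. Of the 20, 6 were higher by more than their error and none lower by more than it. Among all genes 48.8% were positive, 13.4% higher and 19.1% lower by more than their error. Atf4, a transcription factor of the integrated stress response, differed by 0.59 ± 0.20, Ddit3, the stress factor CHOP, by 0.34 ± 0.20, and Trib3, a pseudokinase induced by stress, by 0.27 ± 0.20. Foxo4, a forkhead factor that was dim on both arrays, differed by -0.35 ± 0.41, and by 0.24 with quantile normalization. Trp53, which encodes p53, differed by 0.12 ± 0.15, and Mdm2, its ubiquitin ligase and target, by 0.22 ± 0.20.

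Of 16 p53 target genes outside the BCL2 family, 15 were read on both arrays, and 13 of these had a positive difference, 9 by more than their error, none 2-fold apart. Among all genes 48.8% were positive and 13.4% higher by more than their error. The list median was 0.26, from 0.24 with normexp background (10 of 15 positive) to 0.44 with median scaling (15 of 15). Btg2, an antiproliferative gene, had a signal of 2278 in WT and 3685 on the KO-labelled array (0.61 ± 0.20). Aen, an apoptosis-enhancing nuclease (0.55 ± 0.20), Perp, a membrane effector of p53 (0.55 ± 0.20), and Phlda3, a repressor of AKT (0.55 ± 0.20), came next. Cdkn1a, the cell cycle inhibitor p21, differed by 0.23 ± 0.067, an error narrowed by averaging over several spots. The median scanner error over all genes was 0.20. The p53 targets inside the family, Bbc3, Bax and Pmaip1, differed by 0.30, 0.25 and 0.036. Of the 11 microglia and leukocyte markers read on both arrays, 9 also had a positive difference, as given above. Ptprc (-0.20) and Cd79a (-0.73) were lower on the KO-labelled array. The part of these cell types in the values of the p53 targets was not tested.

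**Figure D3:**
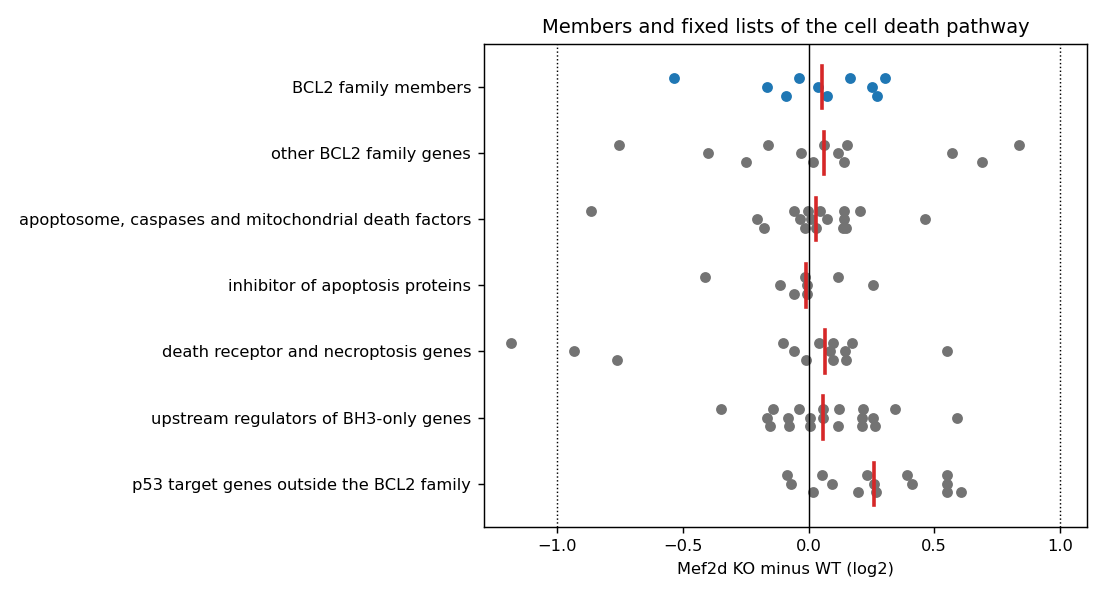
Difference of each gene (log2, KO-labelled array minus WT) for the 10 BCL2 family members (blue) and the genes of 6 fixed lists read on both arrays (grey). Red bars are list medians, dotted lines mark 2-fold, and the vertical spread within a row only separates points. The p53 target list has the highest median, 0.26, and Mlkl at -1.18 is the one point beyond 2-fold.

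Processing moved the members by less than their scanner error, with Bcl2l11 as the exception. Bcl2l1, Mcl1, Bax, Bbc3 and Bid were positive under each of the 10 settings compared, and Bcl2l11 was negative under the 9 settings that gave it a value. Bcl2 and Bak1 turned positive with median scaling, Bcl2l2 with median scaling and normexp background, and Pmaip1 turned negative with normexp background. The range of Bbc3 was 0.29 to 0.48, that of Bax 0.23 to 0.43 and that of Bcl2l1 0.25 to 0.45.

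**Figure D4:**
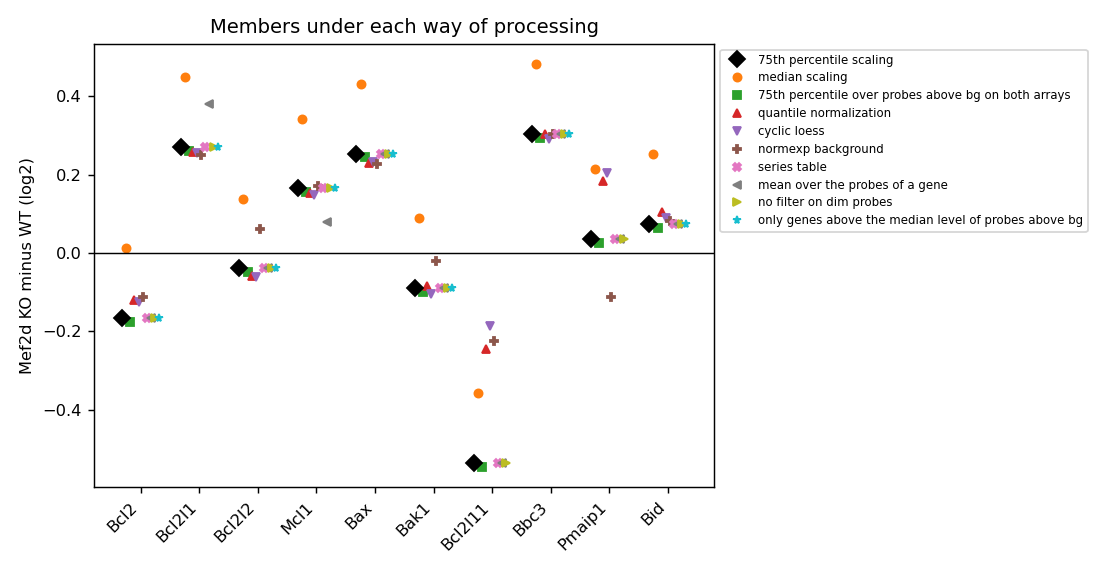
Difference of each BCL2 family member (log2, KO-labelled array minus WT) under 10 ways of processing, 1 symbol per setting, with 75th percentile scaling as black diamonds. Median scaling (orange circles) lies above the diamonds for every member, and Bcl2l11 spreads the most, from -0.545 to -0.19.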

How the data were processed

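WT and Mef2d KO RNA were hybridised to 1 array each. The deposited intensity values come from Agilent Feature Extraction 10.10.1.1, per the file headers, background-subtracted and without scaling across arrays. The series matrix repeats them multiplied by 1 constant per array (1.879 and 1.763), linear and not centred. The basis of these constants is unstated in the sources used here.

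Log2 processed signals were set relative to each array's 75th percentile over 59305 probe spots, without 106 and 126 outlier spots. Spots of a probe were averaged, giving 55669 probes, and 27231 were named through RefSeq accessions (GRCm38.p6). The array design names build mm9, and the printed promoter positions are those of RefSeq on GRCm38.p6. A call was a difference of at least 2-fold, with no test. The named genes were all members, up to 4 genes per list with the largest differences, any gene past 2-fold, and Mef2d, less 2 genes that are not reported here. Casp8, Casp9, Apaf1, Cycs, Trp53, Mdm2, Cdkn1a, Bik, Bcl2a1c, Xist and Eif2s3y were named after their values were seen. The members and lists were chosen with earlier results of these data known. Scripts used R 4.3.3, limma 3.58.1 and Python 3.11.15 and were tested on simulated data. Alternatives were other scalings, normexp background (offset 50), the series table, probe averaging and filters on dim genes.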

Additional observations from a re-analysis of the deposited data

How the results depend on the processing

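No member passed 2-fold in either direction under any of the 9 alternatives. The median of the members moved from 0.055 to 0.23 with median scaling, which shifted the median of all genes from -0.006 to 0.17, and by less than its error under the other alternatives (0.045 to 0.13). The counts over all genes, 281 lower and 100 higher, became 170 and 151 with median scaling, 162 and 158 with quantile normalization, 162 and 156 with cyclic loess, 103 and 61 with normexp background, and 1739 and 225 without the filter on dim genes. No paired analysis was possible because each group has 1 array, and no replicate could be left out. Over 399 probes with at least 3 spots, the spot-to-spot SD of the difference had a median of 0.062 above a level of -3 and 0.39 at or below it. Bcl2l11 has the widest scanner error of the members, and its value went from -0.535 to -0.19 with cyclic loess. The cause was not tested.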
